A study of Mus musculus with 6 samples.

Results

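The 40 genes described here encode the contractile machinery of striated muscle, the calcium and energy proteins around it, the myogenic transcription factors and subunits of the muscle acetylcholine receptor. They were chosen by name, and all 40 were found among the 24346 gene names of each library. The tissue was the calvaria (the skull roof) of newborn mice, taken with the interparietal and occipital bones and without ear cartilage, and messenger RNA was sequenced. Of the 6 libraries, 3 were controls of genotype Pth1rfl/fl, with floxed alleles of the receptor for parathyroid hormone and its related protein. The other 3 were labelled mutant, genotype Prx1-Cre;Pth1rfl/fl, so all 6 carried the floxed alleles and those labelled mutant also carried a Cre transgene known to act in limb and skull mesenchyme. How many animals went into each library is not given, so p-values measure the spread between these libraries, which may be partly technical.

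Skeletal muscle contracts when myosin thick filaments pull on actin thin filaments inside the sarcomere, a unit bounded by Z-discs and switched on by calcium through troponin and tropomyosin. Nearly every sarcomere protein comes in isoforms encoded by separate genes: embryonic and neonatal forms are made before birth and give way to adult fast or slow forms. Some forms named for the heart are also made by developing skeletal muscle. A dissected skull roof is known to carry thin muscle at its edges and attachments, while bone and suture cells do not build sarcomeres.

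Values are FPKM, fragments scaled to transcript length and to library size, so levels of different genes can be set side by side. Read totals were not given, and the steps between the smallest values put the depth of the libraries between 0.703 and 1 times that of control 1. The targeted gene Pth1r had 89.2, 93.3 and 102 FPKM in controls 1 to 3 against 127, 125 and 142 FPKM in libraries 1 to 3 labelled mutant. It was thus not lower under the mutant label (log2 difference 0.47 ± 0.08 SE, limma with Benjamini-Hochberg adjustment, adjusted p = 0.0651), and the exons removed were not given. Directions below are therefore named by label. The bone collagen genes Col1a1 and Col1a2 were abundant in every library, at 9427 FPKM or more and 7474 FPKM or more.

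Muscle genes were abundant in these skulls, and almost all of them shared their highest and lowest libraries. The summed FPKM of the 40 genes was 31068, 18784 and 21801 in controls 1 to 3 against 21031, 27401 and 16415 in libraries 1 to 3 labelled mutant. Control 1 was highest and library 3 labelled mutant lowest, and the groups overlapped. As a share of all FPKM this was 5.71%, 3.60% and 4.17% in controls and 3.85%, 4.90% and 3.02% in the libraries labelled mutant, with means of 4.5% ± 1.09 and 3.92% ± 0.94 (SD, n = 3 each). Within each group the share differed 1.58-fold and 1.62-fold between libraries, against a ratio of 0.873 between the group means. In a bulk sample, fewer muscle cells and less muscle RNA per cell cannot be told apart.

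**Figure D1:**
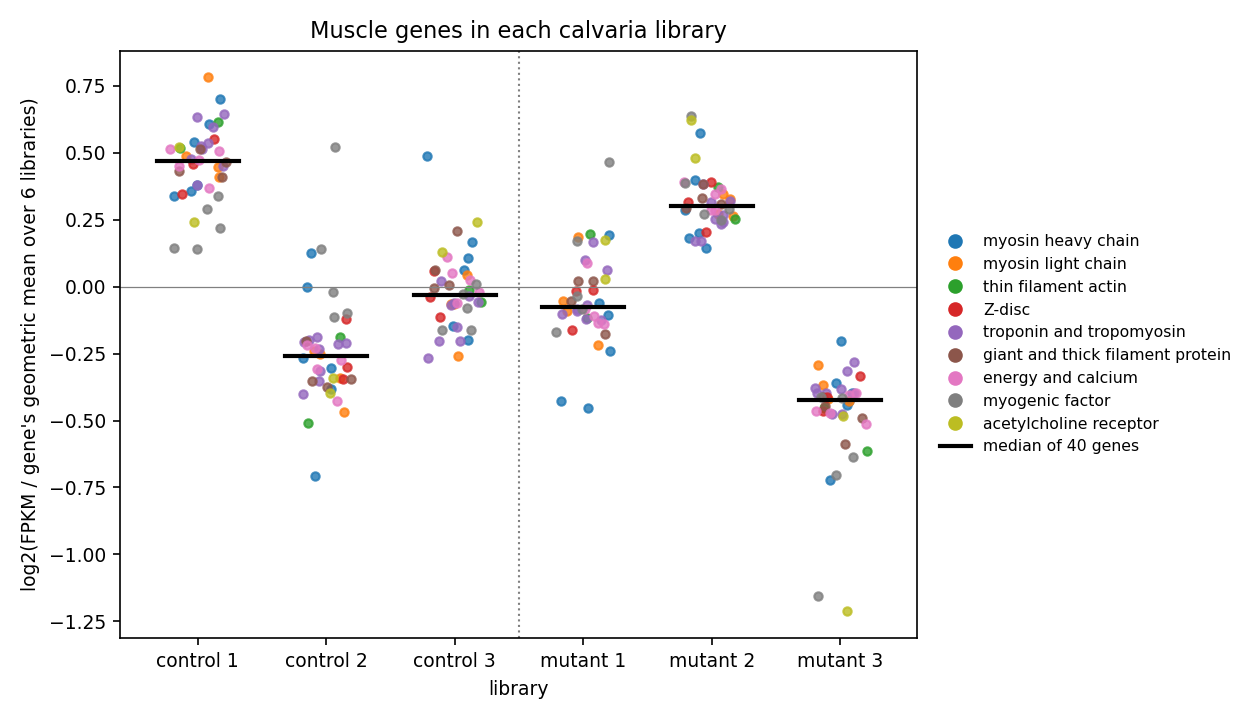
Each point is 1 of the 40 muscle genes in 1 library, as the log2 ratio of its FPKM to its geometric mean over the 6 libraries, coloured by role; library names are those of the labels and black lines are medians. Control 1 and library 2 labelled mutant lie highest, library 3 labelled mutant lies lowest, and the groups overlap for all 40 genes.

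The extremes were alike for most of the genes. Control 1 had the highest value for 32 of the 40 genes and library 2 labelled mutant for 7, and the exception was Pax7, highest in control 2. For 38 of 40 genes these 2 libraries formed the top pair, as they did for 8.84% of the 13180 genes tested. Library 3 labelled mutant was lowest for 35 of 40 genes, as for 18.4% of genes tested. The exceptions were Myh1, Myh2, Myl2, Tnni1 and Tnnc1. Relative to control 1, the median gene had a ratio of 0.610 in the control 2 library and 0.718 in the control 3 library, and of 0.706, 0.902 and 0.530 in the libraries labelled mutant 1 to 3. By the steps between the smallest values, control 1 was also the deepest library and library 3 labelled mutant the shallowest, at 0.703 of control 1. Library 2 labelled mutant was at 0.778. These depths are estimates: between 43.65% and 47.83% of the low values used lay near the ratio taken for a library. The part of depth in these orders was not tested.

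The ratio of highest to lowest library ran from 1.58 for Myf6 to 3.56 for Chrng, with a median of 1.91 over the 40 genes. Over genes tested (mean of at least 1 FPKM) the spread within groups, as SD of log2(FPKM + 1), had a median of 0.374 for the 38 muscle genes that passed this filter and 0.110 for all 13180. Myh4 and Pax7 did not reach the filter.

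A list of 75 other muscle genes took the same order of libraries, with a summed 5182, 3121 and 3620 FPKM in the controls against 3585, 4696 and 2792 FPKM in the libraries labelled mutant. The sums of 9 osteoblast genes ran otherwise, between 21104 and 23546 FPKM in 5 libraries and at 29867 FPKM in library 3 labelled mutant, where muscle was lowest. Most of each sum came from Col1a1 and Col1a2, at 13131 and 10362 FPKM in that library, so it says little of the less abundant osteoblast genes. Smooth muscle and pericyte genes summed to between 337 and 378 FPKM in the 6 libraries, and tendon genes to between 486 and 784 FPKM. The part of dissection in these differences was not tested.

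**Figure D2:**
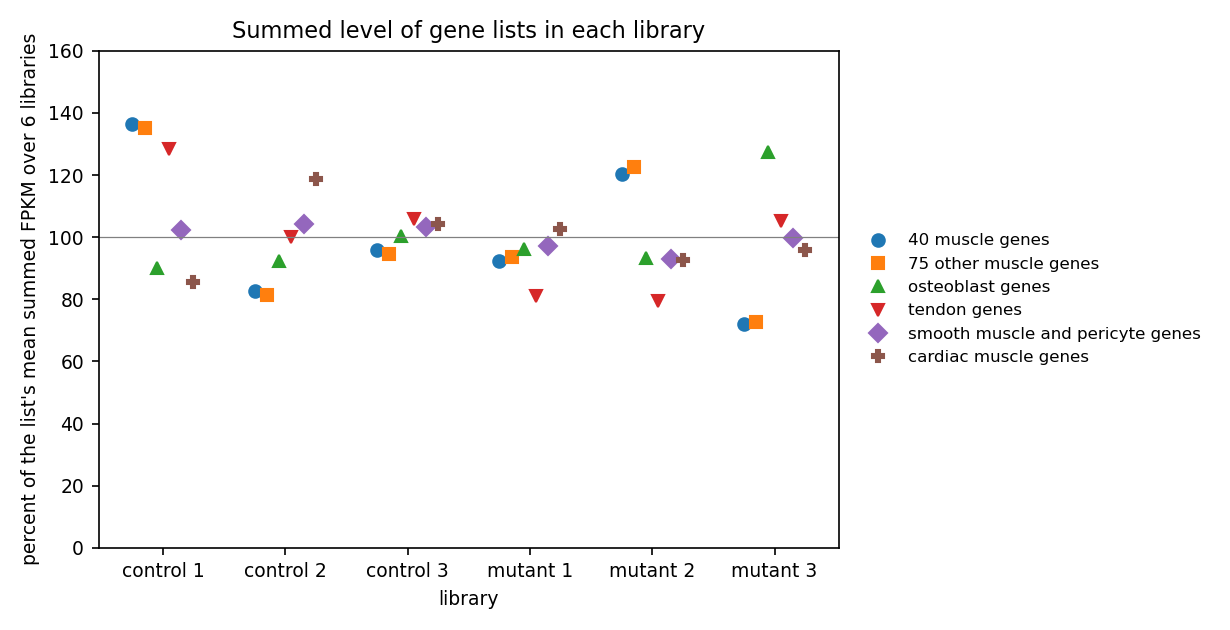
Summed FPKM of 6 gene lists in each library, as a percent of the list's mean over the 6 libraries; library names are those of the labels. The 40 muscle genes (16415 to 31068 FPKM) and the 75 other muscle genes (2792 to 5182 FPKM) move together, while smooth muscle and pericyte genes (337 to 378 FPKM) vary little.

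Levels spanned more than 4 orders of magnitude on the FPKM scale. Acta1, which encodes skeletal alpha-actin of the thin filament, was the highest of the 40 in every library and made up between 23.8% and 25.5% of their summed FPKM. It was followed by the fast regulatory light chain gene Mylpf, the fast essential light chain gene Myl1, the fast troponin genes Tnnc2, Tnnt3 and Tnni2, the tropomyosin gene Tpm1 and the muscle creatine kinase gene Ckm. These 8 genes averaged over 1000 FPKM. The lowest were Myf5, Pax7 and Myh4.

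The stretch before the transcription start was read for each muscle gene with an entry in the RefSeq promoter table (GRCm38.p6). There were 38 such promoters for 34 of the 40 genes, and the 250 bases before the start were searched. The motifs were CAGCTG and CACCTG, forms of the E-box read by Myod1 and its relatives, CATTCC, the core of the MCAT element read by TEAD factors, TATAAA, the CArG box of serum response factor, and the MEF2 site. All were searched on both strands except TATAAA, which was searched on the gene's strand. Of the 38 promoters, 42.1% held CAGCTG against 13% of all 32851 promoters, and 55.3% held CAGCTG or CACCTG against 27.7%. CATTCC was in 23.7% against 12.6%, TATAAA in 13.2% against 7.59%, the CArG box in 7.89% against 1.47% and the MEF2 site in 13.2% against 2.92%. These are matches of letters in a window, given as a description with no test. Any link of the motifs to the order of the libraries was not tested. The promoters of the most abundant gene, of the leading pair of myosin heavy chain genes and of the nearly silent Myh4 are shown, 5′ to 3′ on the gene's strand, with matches in capitals.
Acta1: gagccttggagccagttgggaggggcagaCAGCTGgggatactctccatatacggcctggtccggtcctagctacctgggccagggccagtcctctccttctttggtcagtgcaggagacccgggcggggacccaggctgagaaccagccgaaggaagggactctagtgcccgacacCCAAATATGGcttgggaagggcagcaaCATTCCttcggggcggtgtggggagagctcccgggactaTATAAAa
Myh8: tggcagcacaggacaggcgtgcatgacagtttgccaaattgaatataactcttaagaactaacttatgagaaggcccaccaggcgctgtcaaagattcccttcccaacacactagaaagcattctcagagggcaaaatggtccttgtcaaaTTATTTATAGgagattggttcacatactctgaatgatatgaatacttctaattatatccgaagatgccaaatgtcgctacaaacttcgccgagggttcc
Myh3: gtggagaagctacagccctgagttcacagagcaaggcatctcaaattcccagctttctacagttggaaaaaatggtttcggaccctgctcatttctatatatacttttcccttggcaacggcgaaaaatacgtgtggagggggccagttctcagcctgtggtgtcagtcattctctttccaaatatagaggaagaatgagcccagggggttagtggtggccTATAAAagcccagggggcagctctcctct
Myh4: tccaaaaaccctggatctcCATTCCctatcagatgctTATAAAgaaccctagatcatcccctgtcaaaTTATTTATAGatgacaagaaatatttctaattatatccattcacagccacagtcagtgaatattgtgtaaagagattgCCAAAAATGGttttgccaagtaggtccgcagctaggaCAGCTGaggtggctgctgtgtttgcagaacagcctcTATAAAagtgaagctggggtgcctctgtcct
The windows are chr8:123894776-123895025 (minus strand) for Acta1, chr11:67276874-67277123 (plus) for Myh8, chr11:67078050-67078299 (plus) for Myh3 and chr11:67237562-67237811 (plus) for Myh4. Acta1 holds CAGCTG, the CArG box, CATTCC and TATAAA. Myh8 holds the MEF2 site alone and Myh3 TATAAA alone. Myh4, the gene with the lowest level in every library, holds all of the motifs except CACCTG, with TATAAA at 2 places.

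Myosin heavy chains, the motor proteins of the thick filament, were mostly of the developmental kind. Myh8, the neonatal form, had 943, 611 and 769 FPKM in the controls against 684, 969 and 542 FPKM in the libraries labelled mutant. Myh3, the embryonic form, had 355, 198 and 213 FPKM in the controls against 279, 281 and 182 FPKM in those labelled mutant. For both genes the groups overlapped, and library 3 labelled mutant was lowest. Among adult forms, Myh7, of slow fibres and the fetal heart, had 113, 53.2 and 62.5 FPKM in the controls against 66.5, 84.6 and 52.7 FPKM in those labelled mutant. Myh1 (fast 2X) had 83.6, 72.2 and 74.3 against 48.3, 75 and 51.6 FPKM, and Myh2 (fast 2A) had 55.6, 42.7 and 46.1 against 31.8, 47.2 and 37.1 FPKM. In both of these fast genes 2 of the libraries labelled mutant lay below every control, and library 2 did not. Myh4, the fastest form (2B) and a major heavy chain of adult mouse limb muscle, was between 0.177 and 0.445 FPKM in every library.

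As shares of the summed FPKM of these 6 genes, Myh8 made up between 60.8% and 66.5% and Myh3 between 18.2% and 25.1% in each library. Myh8 averaged 63.1% ± 2.65 in controls and 63.6% ± 2.58 in the libraries labelled mutant, and Myh3 20.5% ± 2.34 and 21.8% ± 3.0 (SD, n = 3 each). Myh7 held 6.02% ± 1.07 and 5.96% ± 0.15. The adult fast forms Myh1, Myh2 and Myh4 together held 9.01%, 11.8% and 10.4% in controls and 7.24%, 8.41% and 10.3% in the libraries labelled mutant, or 10.4% ± 1.38 and 8.64% ± 1.53 (SD, n = 3 each). Groups overlapped for each of these shares. The summed level of the 6 genes differed 1.79-fold between libraries, from 865 to 1550 FPKM, while no share moved by more than 6.87 percentage points.

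**Figure D3:**
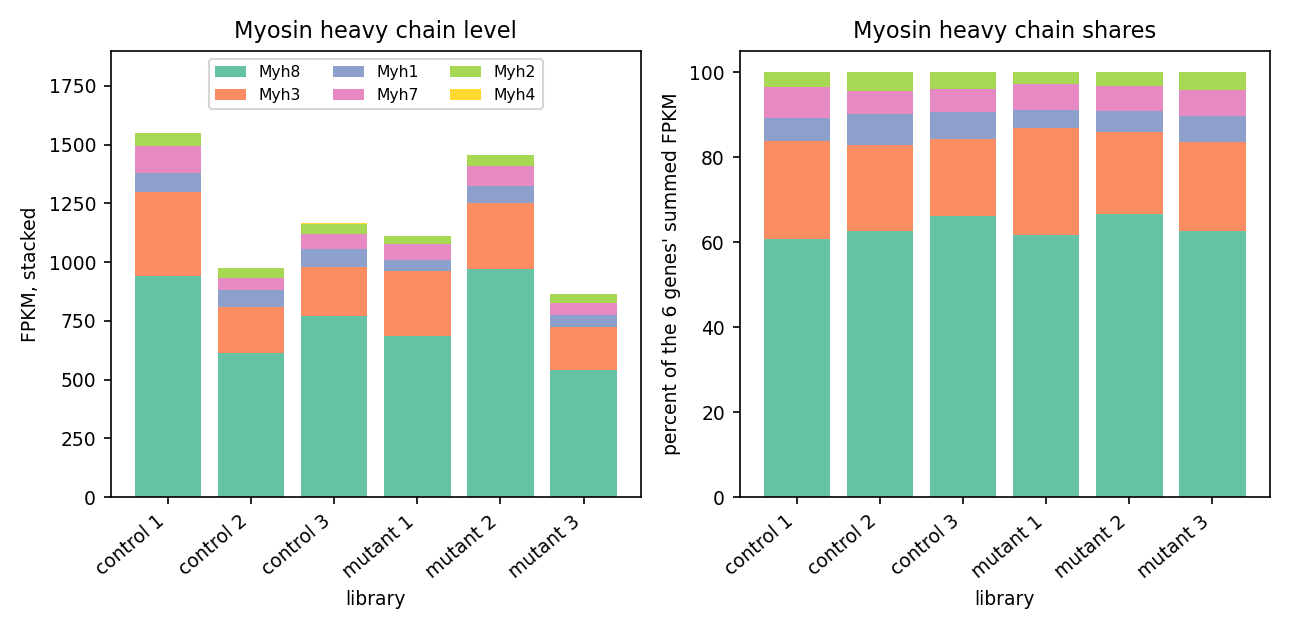
Left, FPKM of the 6 myosin heavy chain genes stacked by library; right, each gene's percent of their summed FPKM; library names are those of the labels. The total runs from 865 to 1550 FPKM, and Myh8 keeps between 60.8% and 66.5% of it.

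Myh3, Myh2, Myh1, Myh4 and Myh8 lie in that order on the plus strand of chromosome 11 between positions 67078300 and 67308634 (GRCm38, GENCODE M21), a span of 230.3 kb. Myh7 lies on the minus strand of chromosome 14, positions 54970684 to 54994626, beside the cardiac gene Myh6. Their messages are similar, so fragments can be hard to assign. Of the 50-base stretches in annotated Myh1 transcripts, 18.7% also occur in Myh2 and of those in Myh8, 9.21% occur in Myh2 and 7.45% in Myh1. Myh3 shares at most 2.79% with any of these family genes (Myh13). Myh7 shares 21.2% with Myh6, which was at 0.563 FPKM or less. Levels of Myh1 and Myh2 relative to each other and to Myh8 are therefore less certain than that of Myh3. Antisense genes overlap Myh1 and Myh2 (Myhas and 9430073C21Rik), and whether strand was used in counting was not given.

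Light chains, which brace the myosin neck, were almost wholly of the fast kind. Mylpf, the fast regulatory chain, had 3788, 2338 and 2664 FPKM in the controls against 2678, 3534 and 2081 FPKM in the libraries labelled mutant. Its slow and cardiac counterpart Myl2 had 281, 118 and 156 against 141, 196 and 133 FPKM, so that Myl2 made up 5.75% ± 1.06 of the pair in controls and 5.42% ± 0.53 in the libraries labelled mutant (SD, n = 3 each). Myl1, the fast essential chain, had 2804, 1578 and 2063 against 1879, 2505 and 1488 FPKM. Myl4, the essential chain of embryonic muscle and the atrium, had 160, 102 and 101 against 137, 146 and 93.4 FPKM. Myl4 was 1 of 3 among the 40 genes with a higher mean FPKM under the mutant label, at a ratio of 1.04. Its share of the pair with Myl1 was 5.38% ± 0.71 in controls and 6.07% ± 0.67 in those labelled mutant (SD, n = 3 each), and the groups overlapped. The slow essential chain gene Myl3, which overlaps Pth1r on the opposite strand and is not among the 40, had 43.2, 20.2 and 23.2 against 22.3, 29.5 and 18.6 FPKM, highest in control 1 and lowest in library 3 labelled mutant, where Pth1r was highest.

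Both sarcomeric actins were present. Acta1 had 7812, 4796 and 5415 FPKM in the controls against 5036, 6507 and 3994 FPKM in the libraries labelled mutant. Actc1, the cardiac alpha-actin that fetal skeletal muscle also makes, had 904, 415 and 569 against 677, 765 and 386 FPKM. Actc1 thus formed between 7.96% and 11.9% of the pair in each library, on average 9.28% ± 1.22 in controls and 10.4% ± 1.52 in the libraries labelled mutant (SD, n = 3 each). At the Z-disc, where thin filaments are anchored, the alpha-actinin gene Actn2 had between 186 and 376 FPKM and the fast-fibre form Actn3 between 46.6 and 76.8 FPKM. Des, which encodes the intermediate filament desmin that links Z-discs and is also made by smooth muscle, had 370, 248 and 248 against 267, 310 and 203 FPKM. All 5 genes had overlapping groups, with Acta1 at a ratio of 0.862 between the means and the other 4 between 0.90 and 0.968.

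Troponin, the calcium switch of the thin filament, was of the fast kind for each of its 3 subunits. Tnni2, the fast inhibitory subunit, had 2006, 1228 and 1388 FPKM in the controls against 1355, 1884 and 1038 FPKM in the libraries labelled mutant, and its slow partner Tnni1 had 166, 88.1 and 91.1 against 117, 123 and 90.3 FPKM. Slow Tnni1 formed 6.82% ± 0.74 of the pair in controls and 7.37% ± 1.06 in those labelled mutant (SD, n = 3 each). The calcium-binding subunits gave nearly the same split, with slow and cardiac Tnnc1 at 7.09% ± 0.93 and 7.44% ± 0.64 of its pair with fast Tnnc2. Of the tropomyosin-binding subunits, fast Tnnt3 held 88.7% ± 0.83 and 88.3% ± 0.56, slow Tnnt1 held 9.08% ± 0.73 and 9.17% ± 0.45, and Tnnt2, the cardiac form made early in skeletal muscle, held 2.2% ± 0.12 and 2.5% ± 0.30 (SD, n = 3 each). None of these shares separated the groups. The tropomyosin genes Tpm1 and Tpm2, whose products lie along the thin filament, had between 1070 and 1732 FPKM and between 370 and 695 FPKM. Tpm1 is also made outside muscle, and its ratio of highest to lowest library, 1.62, was the second lowest of the 40.

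**Figure D4:**
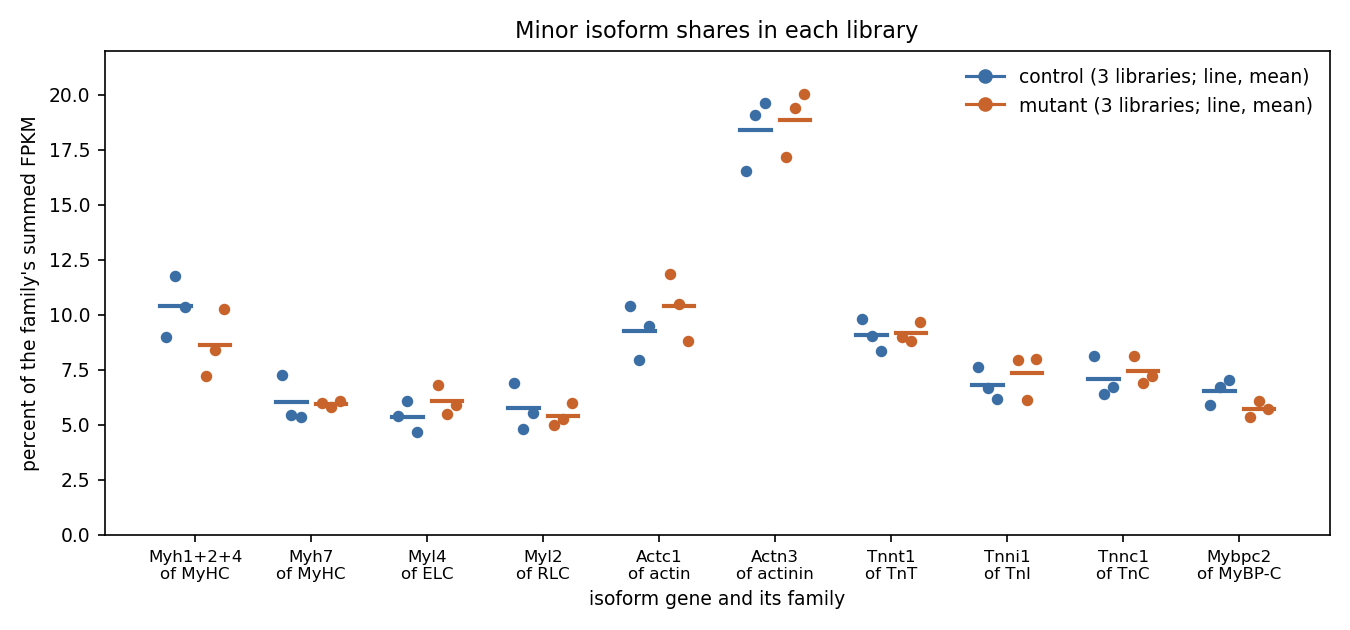
Percent of a family's summed FPKM held by its less abundant isoform genes in each library (points) with group means (lines); MyHC, myosin heavy chain; ELC and RLC, essential and regulatory light chain; TnT, TnI and TnC, troponin subunits; MyBP-C, myosin-binding protein C; groups are those of the labels. Points of both groups overlap in all 10 columns, for example at 6.15% to 8.0% for Tnni1.

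The giant proteins titin and nebulin, which set the length and stiffness of the filaments, had low values per length. Ttn had 12.4, 7.05 and 9.19 FPKM in the controls against 9.28, 11.5 and 6.87 FPKM in the libraries labelled mutant, and Neb had 19.98, 11.8 and 15.7 against 14.5, 19.6 and 11.04 FPKM. For both, control 1 was highest and library 3 labelled mutant lowest. Of the myosin-binding proteins, Mybpc1, named slow, had 444, 245 and 310 against 316, 385 and 222 FPKM and held 93.5% ± 0.56 of its pair with fast Mybpc2 in controls and 94.3% ± 0.35 in those labelled mutant (SD, n = 3 each). The form named slow was the more abundant here, unlike in the troponin and light chain families. Mybpc2 had 27.98, 17.6 and 23.4 against 17.9, 24.8 and 13.5 FPKM, a ratio of 0.815 between the means.

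Genes for energy and calcium handling had their highest and lowest values in the same libraries as most filament genes. Ckm, the muscle creatine kinase that regenerates ATP, had 1725, 1043 and 1246 FPKM in the controls against 1191, 1654 and 916 FPKM in the libraries labelled mutant. Atp2a1, the calcium pump of fast fibres, had 613, 380 and 458 against 401, 561 and 310 FPKM, and Ryr1, the calcium release channel, had between 13 and 22.03 FPKM. The calcium store proteins were both present: Casq1, of fast fibres, had 219, 124 and 156 against 142, 187 and 116 FPKM, and Casq2, of slow fibres and heart, had 129, 67.8 and 87.4 against 96.7, 117 and 65.6 FPKM. Casq2 held 36.2% ± 0.92 of the pair in controls and 38.4% ± 2.17 in those labelled mutant (SD, n = 3 each), a larger share than slow forms held in the troponin and light chain families.

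Myogenic factors, the transcription factors that set and drive the muscle lineage, were at low levels. Myog, which drives differentiation of myoblasts, had 30.6, 22.4 and 23.7 FPKM in the controls against 27.2, 29.2 and 15.6 FPKM in the libraries labelled mutant. Myf6, prominent in fibres, had 18.01, 17.05 and 13.8 against 15.1, 18.4 and 11.6 FPKM. Myod1, the determination factor, had between 4.5 and 7.84 FPKM. Myf5, active in early myoblasts, had 1.17, 0.986 and 1.06 against 1.46, 1.64 and 0.474 FPKM. Pax7, the mark of satellite cells (the muscle stem cells), had 0.651, 0.847 and 0.559 against 0.526, 0.722 and 0.363 FPKM. Myf5 varied 3.46-fold and Pax7 2.33-fold over the 6 libraries, at levels where few fragments stand behind a value. Library 3 labelled mutant was the lowest for all 5 factors. Myf5 and Myf6 are neighbours on the minus strand of chromosome 10, at positions 107482908 to 107486134 and 107492853 to 107494737 (GRCm38).

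The acetylcholine receptor of the nerve-muscle junction carries a gamma subunit (Chrng) before birth that an epsilon subunit (Chrne) later replaces. Chrng had 5.16, 2.84 and 4.26 FPKM in the controls against 4.07, 5.55 and 1.56 FPKM in the libraries labelled mutant. Chrne, which is not among the 40, was between 0.165 and 0.581 FPKM. The gamma form thus held between 87.9% and 96.3% of the pair in each library, 93.4% ± 4.0 in controls and 91.3% ± 3.84 in those labelled mutant (SD, n = 3 each). Chrna1, the alpha subunit shared by both forms, had 3.76, 2.42 and 3.48 against 3.25, 4.45 and 2.28 FPKM. For both members the groups overlapped.

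The comparison of the labels asked whether muscle genes changed with the Prx1-Cre genotype. None of the 38 genes tested passed an adjusted p threshold of 0.05 in limma (Benjamini-Hochberg, over 13180 genes), while 0.607% of all genes tested passed, 0.524% higher and 0.0835% lower under the mutant label. All 40 had groups that overlapped, while the mutant label lay wholly above for 9.34% of genes tested and wholly below for 6.79%, together 16.1%. An unadjusted p under 0.05 was found for 1 of the 38, against 10.5% of genes tested. This was Myh1, with 76.7 ± 6.09 FPKM in the controls against 58.3 ± 14.6 FPKM in the libraries labelled mutant (SD, n = 3 each), a log2 difference of -0.41 ± 0.16 (SE; limma with Benjamini-Hochberg adjustment, adjusted p = 0.4225). Next was Myh2, at 48.1 ± 6.67 against 38.7 ± 7.82 FPKM (SD, n = 3 each) and a log2 difference of -0.32 ± 0.16 (SE; limma with Benjamini-Hochberg adjustment, adjusted p = 0.561). The abundant Acta1 had 6008 ± 1593 and 5179 ± 1263 FPKM and Myh8 774 ± 166 and 732 ± 218 FPKM (SD, n = 3 each), with log2 differences of -0.21 ± 0.23 and -0.10 ± 0.24 (SE).

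Mean FPKM was lower under the mutant label for 37 of the 40 genes and higher for Myl4, Myf5 and Chrna1, and 24 of the 40 ratios lay between 0.9 and 1.1. On the log2(FPKM + 1) scale 34 of 38 genes had a lower mean under the mutant label, as did 49.5% of genes tested, and the median difference was -0.12 over the 38 genes and 0.00 over all genes tested. This direction rested on single libraries: the median was 0.08 without control 1 and 0.09 without library 3 labelled mutant, and it was -0.27 without control 2 and -0.29 without library 2 labelled mutant. Intervals (95%) ran from -1.01 at the lowest (Chrng) to 0.77 at the highest (Actc1), and the median distance from estimate to bound was 0.56. The interval reached a fall of at least 2-fold in FPKM + 1 for 1 gene of 38, Chrng, and a rise of 2-fold for 0. It reached such a fall for 2.27% of genes tested, a share that also counts genes whose whole interval lay beyond it. Smaller changes could not be told from the spread between libraries. At low levels, as for Myf5, a 2-fold change of FPKM is a smaller step in FPKM + 1, so these counts do not exclude it.

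**Figure D5:**
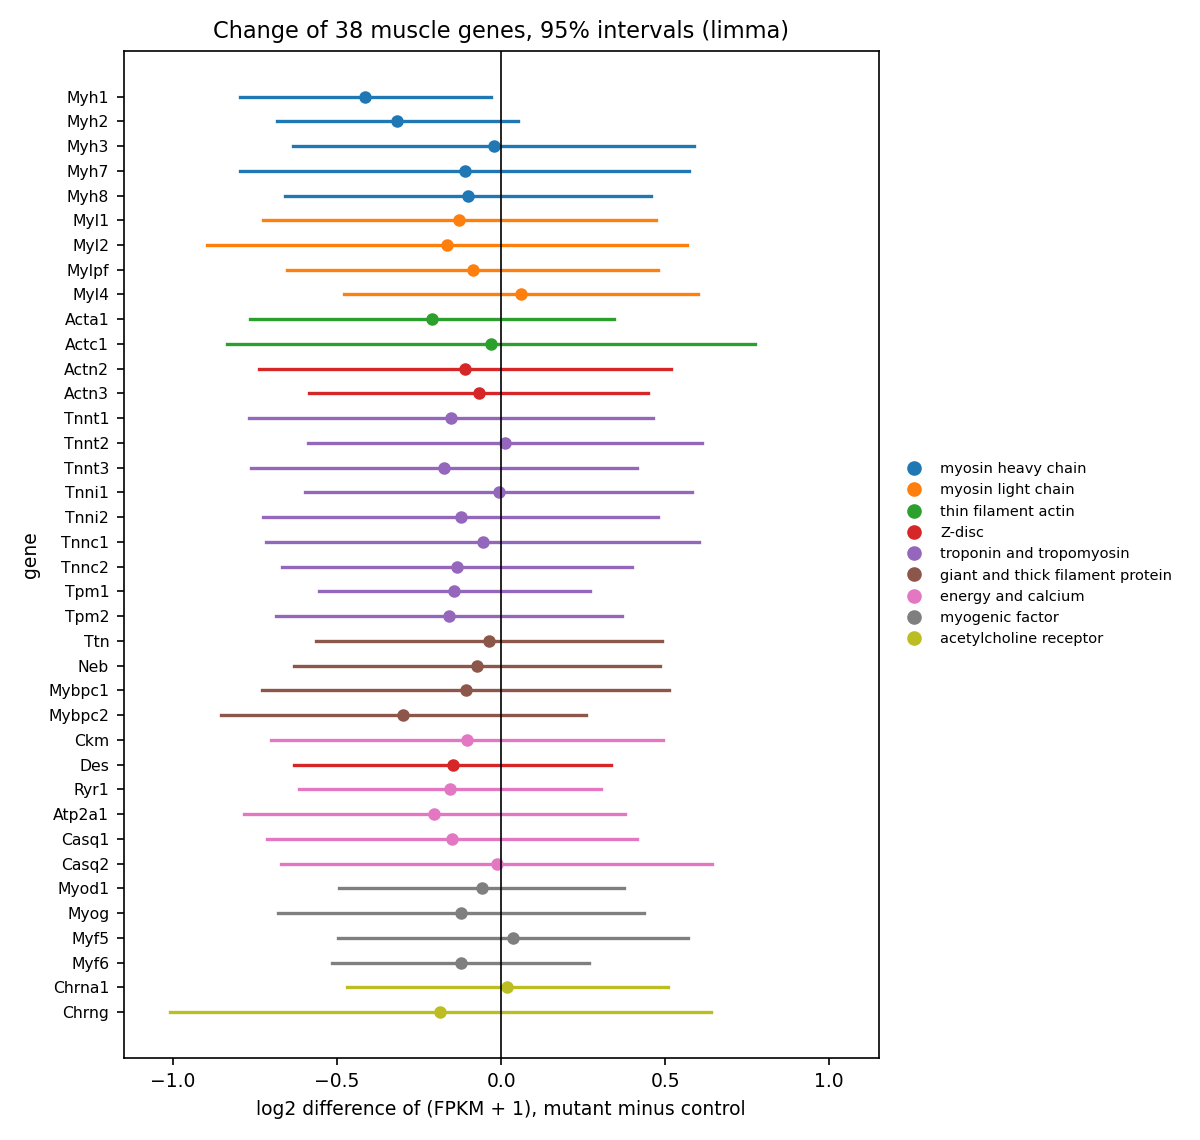
Log2 difference of FPKM + 1 (libraries labelled mutant minus controls) for the 38 muscle genes tested, with limma's unadjusted 95% intervals, 3 libraries a group, coloured by role. The interval holds 0 for 37 genes, Myh1 being the exception, and spans from -1.01 to 0.77 over all of them.

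The rest of the muscle programme gave the same picture. Of 71 other muscle genes tested, 0 passed in either direction in limma, 2 had an unadjusted p under 0.05, among them Dysf, the gene of the membrane repair protein dysferlin, and the median log2 difference was -0.09. The most abundant were the muscle enolase gene Eno3 (289 to 533 FPKM), Sln, the calcium pump regulator sarcolipin (234 to 466 FPKM), and the Z-disc gene Csrp3 (141 to 333 FPKM). Dysf had 7.44, 6.98 and 7.46 FPKM in the controls against 8.39, 9.33 and 8.69 FPKM in those labelled mutant, and Mef2c, a transcription factor of muscle, bone and blood vessels, 29.4, 23.5 and 29.1 against 29.8, 34.8 and 32 FPKM. Mef2a, a relative of Mef2c, had a ratio of 1.11 between the means. For these 3 genes every library labelled mutant lay above every control, and none passed the adjusted threshold. They were the only 3 of the 71 to lie wholly above, and 1 lay wholly below, against 9.34% and 6.79% of all genes tested. Mef2a was named after its values were seen.

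Markers of heart muscle were low or listed at 0. Of 11 cardiac genes, Hand2 was listed at 0 in every library. The atrial light chain gene Myl7, the natriuretic peptide gene Nppb, Nkx2-5 and Tbx5 were listed at 0 in at least 4. Myh6 and Mybpc3 were at 0.563 FPKM or less. The most abundant was Tnni3, the cardiac troponin I gene, at 3.50 to 4.83 FPKM, highest in control 2 and lowest in library 2 labelled mutant, and the list summed to between 4.5 and 6.25 FPKM. Tnni3 overlaps the protein-coding gene Dnaaf3 on the same strand, and the part of Dnaaf3 in its value was not tested. Of the genes linked to the heart above, Actc1, Tnnt2, Myl4, Casq2 and Myh7 were highest in control 1 and lowest in library 3 labelled mutant. Myl2 and Tnnc1 were also highest in control 1, but lowest in control 2. There they had 118.1 and 100.3 FPKM, against 133.2 and 100.4 FPKM in library 3 labelled mutant. The part of heart muscle in the values of all these genes was not tested. Smooth muscle was present, with Acta2 at 62.6 to 83.04 and Tagln at 56.07 to 78.6 FPKM. Both had lower values in every library labelled mutant than in any control, as did Cnn1. Notch3, a pericyte marker, had higher values (22.2 to 23.8 FPKM in the controls against 24.2 to 27.1 FPKM in those labelled mutant). Cnn1 and Notch3 were chosen after their values were seen. In the same list, Pdgfrb, Rgs5 and Cspg4 had overlapping groups, with ratios of 1.05, 0.996 and 0.913 between the means. Of the 11 genes tested, 1 lay wholly above and 3 wholly below, against 9.34% and 6.79% of all genes tested. Myh11, the defining heavy chain gene of smooth muscle, was at 2.37 to 3.20 FPKM, and 0 of 11 genes tested passed (3 with an unadjusted p under 0.05, limma).

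In the list of satellite cell genes, 0 of 7 tested passed (1 with an unadjusted p under 0.05, limma). The 2 most abundant, Sdc4 and Chodl, had 27.8 to 37.9 and 14.5 to 31.3 FPKM. Calcr, the calcitonin receptor gene of satellite cells and osteoclasts, was named after its values were seen, at 1.16, 0.641 and 0.592 FPKM in the controls against 2.80, 2.64 and 1.29 FPKM in those labelled mutant, with no overlap between groups and no pass (limma with Benjamini-Hochberg adjustment, adjusted p = 0.232). Tendon genes, of the cells that tie muscle to bone, had no pass among 7 (2 with an unadjusted p under 0.05, limma), with a median log2 difference of -0.35. Fmod, a small proteoglycan gene, had 380, 312 and 328 FPKM in the controls against 230, 206 and 308 FPKM in those labelled mutant, and Tnmd, the tenomodulin gene, 256, 166 and 203 against 147, 144 and 199 FPKM. The groups overlapped for Tnmd and not for Fmod. Library 2 labelled mutant, second highest for muscle, was lowest for both. Cartilage genes summed to 1576, 1551 and 710 FPKM in the controls against 402, 286 and 325 FPKM in those labelled mutant. Of 7 tested, 2 passed, both lower under the mutant label (Matn1, log2 difference -3.50 ± 0.41, and Col9a3, -2.5 ± 0.32 SE, limma with Benjamini-Hochberg adjustment, adjusted p = 0.0205 and 0.0288). The libraries labelled mutant lay wholly below the controls for 6 of the 7, against 6.79% of all genes tested. Of 9 osteoblast genes 1 passed, Ibsp, a bone matrix protein gene, higher under the mutant label (log2 difference 0.94 ± 0.12 SE, limma with Benjamini-Hochberg adjustment, adjusted p = 0.0306). The libraries labelled mutant lay wholly above the controls for 5 of the 9 and wholly below for 1, against 9.34% and 6.79% of all genes tested. The summed cartilage genes were lower in control 3 than in the other controls, an order not seen in the summed muscle genes. The part of either tissue in the muscle values was not tested.

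Among nerve and Schwann cell genes 0 of 9 tested passed (2 at an unadjusted p under 0.05, limma). The most abundant were Pmp22 (127 to 140 FPKM) and the neuronal tubulin gene Tubb3 (7.63 to 59.2 FPKM, highest in library 2 labelled mutant). Brown fat genes summed to between 4.30 and 11.4 FPKM, led by Cidea and Prdm16, with Ucp1, the defining gene, at 0.0932 FPKM or less and no pass among 4 genes tested (0 with an unadjusted p under 0.05, limma).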

How the data were processed

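Messenger RNA of newborn mouse calvaria was sequenced from 3 control libraries and 3 labelled mutant, after a stranded preparation, per the labels' protocols. Group and replicate number come from the titles. The deposited values are FPKM, made by the authors with Cufflinks 2.2.1 on mm10, per the submitters' processing notes, which also name SAMtools 0.1.19, Bowtie2 2.2.3 and TopHat2 2.0.13. Options, annotation, use of strand and depth are not given in the sources used here. Fragments of similar isoforms are divided by a model in Cufflinks, so their values are less certain.

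The test took genes averaging 1 FPKM or more, on log2(FPKM + 1), which understates changes of low genes, and used limma 3.58.1 in R 4.3.3 (eBayes with trend, two-sided, group as the 1 term, Benjamini-Hochberg adjustment over 13180 genes). The procedure was tested on simulated data. Isoform shares are percents of a family's summed FPKM and carry no test, and relative depth comes from the steps between values below 0.05 FPKM. The genes and lists were chosen with earlier results of these data known. All 40 members are named; of other lists, the most abundant, those past the threshold, those at 0 and, for other muscle genes, the 3 smallest p and Chrne; 1 gene that this rule names is not reported here. Of 77 entries for other muscle genes 75 matched, the others being newer names of listed genes. Coordinates are from GENCODE M21. A list of handling and stress genes had 0 of 7 past the threshold (1 with an unadjusted p under 0.05, limma). Alternatives were another pseudocount, filter, scaling and variance model, a replicate block and each library left out.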

Additional observations from a re-analysis of the deposited data

How the results depend on the processing

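The 15 other settings were no filter, a filter at 5 FPKM, a pseudocount of 0.1, quantile normalization, median-of-ratios scaling, robust eBayes, eBayes without trend, array weights, a replicate block and each of 6 libraries left out. None of the 40 muscle genes and none of the other muscle genes passed in any of them. The lowest adjusted p (limma, Benjamini-Hochberg) of a member was 0.0809, for Myh1 without library 2 labelled mutant. The log2 difference kept its sign in all 15 settings for 5 of 38 genes (Acta1, Mybpc2, Myh1, Myh2 and Ryr1) and changed sign in at least 1 for 33. Leaving out control 1 left 8 lower and 30 higher, and leaving out library 3 labelled mutant left 9 lower and 29 higher, against 34 lower and 4 higher with all libraries. Across all genes, 69 were higher and 11 lower; there were 44 and 6 with no filter, 152 and 31 with array weights, and, when one library was left out, 15 to 34 higher and 1 to 12 lower. With the replicate block there were 23 and 2, and 0 muscle genes. Deviations of same-numbered libraries correlated at 0.0163, -0.0714 and 0.0153 across genes, and not every library correlated best with its own number. With so few libraries a group, these values cannot show whether same-numbered libraries were paired. Differences in isoform shares between groups moved by less than 1 SD under every setting tried for them. Several still changed sign when 1 library was left out, such as Myh3 (-0.32 to 2.6 percentage points), Myh7 (-0.39 to 0.56) and Myh8 (-0.995 to 1.91). Others kept their sign, such as Myh1 (-1.73 to -0.73). With further family genes counted in, the share of Myl1 itself was 90.5% in controls and 90.0% in those labelled mutant, against 94.6% and 93.9%. Median-of-ratios factors and estimated read depth do not separate the groups, and genes under 1 FPKM (Myh4, Pax7) are limited by depth.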
